A study of Bos taurus with 12 samples.

Results

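The expression of ACKR3 (named CXCR7 in the study), CXCL12 and CXCR4 was analyzed in the mammary gland of early lactation cows. These genes were found through the RefSeq accession that the array annotation gives with each probe, and they account for 3 of 12639 named genes and 8 of 43653 probes. ACKR3 (NM_001098381) had 2 probes, CXCL12 (NM_001113174) had 4 and CXCR4 (NM_174301) had 2, each printed as 1 spot per array. ACKR3 was chosen by its measured diet difference, since the study listed it as different between the diets on the same arrays, and CXCL12 and CXCR4 were added as its partners. The ACKR3 difference is therefore a description, without a test.

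CXCL12 is a chemokine that stromal and endothelial cells release and that attracts leukocytes. Cells read it through CXCR4, a receptor that signals through inhibitory G proteins and is carried by most leukocytes. ACKR3 binds the same chemokine, and also CXCL11, but recruits arrestins and removes its ligands from the tissue instead of signaling through G proteins.

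The samples were mammary biopsies of 12 multiparous Holstein cows, with 1 array per cow. Feeding differed between the groups for 4 d, from 24 ± 3 d in milk. For the 6 REST cows, barley straw made up 48% of the dry matter. The 6 CONT cows had a lactation diet and could eat freely. On d 3, all 12 cows were given 50 µg of LPS, a bacterial cell wall component that provokes inflammation, into a healthy rear gland, and tissue was taken 24 h later. All biopsies thus come from LPS-challenged glands, and the comparison is REST against CONT within that state. The labeled tissue was checked by its markers, and all 9 matched markers of secretory luminal epithelium exceeded the background on every array, with a mean log2 signal of 5.61 to 6.35 in the scale described next.

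Signals are log2 intensities minus the 75th percentile of the same array, so that 0 stands for the 75th percentile and negative values lie below it. "Well above background" is the call that the scanner software stored with each spot. The 75th percentile of the intensities was 577.1 to 1184 in CONT and 386.9 to 1082 in REST. There were 3 slides, with 3 CONT and 1 REST on slide 1, 1 and 3 on slide 2, and 2 of each on slide 3. The signal of the negative controls, a measure of background, was 37.7 to 58.2 on slide 1 and 17.4 to 19.96 on the other slides. With 6 arrays per diet, this number sets the precision of every value.

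CXCL12, the ligand, was present in all cows at a similar level in both diets. On its brightest probe (A_73_P303401), the log2 signal was 0.06 at the lowest, 0.45 at the median and 0.82 at the highest in CONT, and 0.18, 0.50 and 0.85 in REST. The diets overlapped over almost their whole range, and 3 of 6 REST cows were above the CONT mean. The CONT mean was 0.44 ± 0.25 and the REST mean 0.51 ± 0.28 (SD, n = 6 cows per diet). The log2 difference, REST minus CONT, was 0.071 (standard error 0.18, 95% interval -0.31 to 0.45), which is smaller than the spread between cows. Adjusted over the whole array, limma gave p = 1 (Westfall-Young), and an exact permutation test of this probe alone gave p = 0.647 (two-sided, not adjusted).

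The other CXCL12 probes were also well above background on all 12 arrays. Their log2 differences were -0.099 (A_73_P043266, standard error 0.16), 0.29 (A_73_P280966, standard error 0.35) and 0.069 (A_73_P447986, standard error 0.24). The 95% intervals of these differences ran from -0.44 to 0.24, from -0.46 to 1.04 and from -0.46 to 0.60, so that a 2-fold change is outside the first and the last interval but not outside that of A_73_P280966. For A_73_P280966, CONT cow 8027 was lowest, at -1.99, and the other CONT cows were between -1.11 and 0.36. The exact permutation p-values of the 3 dimmer probes were 0.446, 0.509 and 0.838, and their adjusted p was 1 (limma, Westfall-Young).

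The CXCL12 probes did not all follow the same cows. After subtraction of the diet means, A_73_P303401 and A_73_P043266 moved together over the 12 cows (Pearson r = 0.80, permutation p = 0.00429, Benjamini-Hochberg adjusted p = 0.0114 over 8 probe pairs; Spearman rho = 0.80, adjusted p = 0.0104). The r was 0.82 with slide means removed and 0.68 without CONT cow 0015 and REST cow 1058, the cows farthest from the median of A_73_P043266. In contrast, A_73_P280966 had an r of 0.020 to 0.33 with the other CXCL12 probes, and A_73_P447986 had an r of 0.33 to 0.47. None of these 5 pairs had an adjusted permutation p under 0.05. The values of CXCL12 in single cows thus depend on the probe.

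CXCR4, the signaling receptor, did not differ detectably between the diets but varied widely among cows. The log2 signal of its brightest probe (A_73_100200) in CONT was -1.72 in cow 0015, -0.93 in cow 1076, -0.90 in cow 0055, -0.32 in cow 1024, 0.76 in cow 9040 and 1.23 in cow 8027. In REST it was -2.38 in cow 0049, -1.06 in cow 1015, 0.16 in cow 7043, 0.33 in cow 1058, 0.50 in cow 0078 and 1.01 in cow 1018. High and low cows occurred in both diets, and the ranges overlapped. The CONT mean was -0.31 ± 1.12 and the REST mean -0.24 ± 1.25 (SD, n = 6 cows per diet). The log2 difference was 0.075 (standard error 0.62, 95% interval -1.27 to 1.42), with p = 1 after adjustment (limma, Westfall-Young) and an exact permutation p of 0.911 for this probe alone. This interval is wide enough to hold a 2-fold change in either direction.

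The other CXCR4 probe (A_73_P049211) ranked the cows almost identically, with r = 0.98 (permutation p = 1e-05, the smallest the resamples can give, adjusted p = 8e-05) and rho = 0.99. Without CONT cow 0015 and REST cow 0049, the farthest from the median, r was 0.99, and it was 0.98 with slide means removed. Its log2 difference was 0.18 (standard error 0.60, 95% interval -1.12 to 1.48; exact permutation p = 0.781). All 12 arrays were well above background on both CXCR4 probes. The spread of CXCR4 among cows is therefore seen by both probes.

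**Figure D1:**
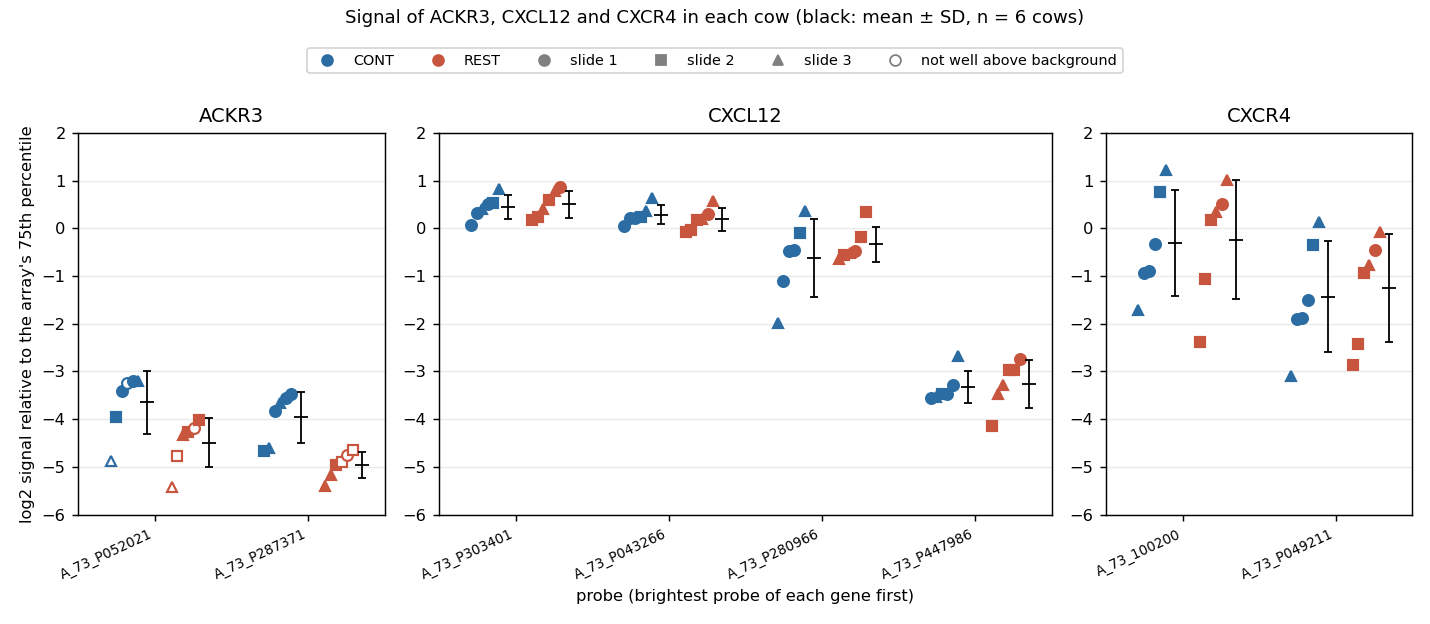
Log2 signal relative to the array's 75th percentile for each probe of ACKR3, CXCL12 and CXCR4, with 1 point per cow (color: diet; shape: slide; open: not well above background) and black bars for the mean ± SD of 6 cows. On both ACKR3 probes 5 CONT cows sit above every REST cow, whereas the diets overlap widely for CXCL12 and CXCR4, and the CXCR4 points are the most spread.

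Within the diets, the highest cow exceeded the lowest by 7.70-fold in CONT and 10.5-fold in REST on the brightest CXCR4 probe. The SD within diets was 1.19 on the log2 scale, above that of 97.6% of the 9001 genes whose brightest probe exceeded the background on each of the 12 arrays and had no missing value. For CXCL12 the corresponding ranges were 1.69-fold and 1.60-fold, and the SD of 0.27 was above that of 34.1% of these genes. The spread of CXCL12 depended on the probe, since the SD was 0.22 on A_73_P043266 (above that of 20.8% of the genes) but 0.43 on A_73_P447986 (64.9%) and 0.64 on A_73_P280966 (84.4%). The other CXCR4 probe had an SD of 1.14 (97.3%), so that CXCR4 was among the more variable genes on both probes.

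ACKR3, the scavenging receptor, was dim on these arrays. The log2 signal of the brightest probe (A_73_P052021) in CONT was -4.88 in cow 0015, -3.95 in cow 9040, -3.42 in cow 0055, -3.25 in cow 1024, -3.21 in cow 1076 and -3.19 in cow 8027. In REST it was -5.41 in cow 1018, -4.78 in cow 1015, -4.33 in cow 1058, -4.26 in cow 7043, -4.18 in cow 0078 and -4.03 in cow 0049. Of the 6 CONT cows, 5 were above every REST cow, and CONT cow 0015 was below all REST cows but 1018. The difference of the means was -0.85 on the log2 scale (standard error 0.33), or -0.33 with normexp, a model-based background correction.

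This probe was above background, as the software calls it, on 7 arrays (4 CONT, 3 REST). The 5 other arrays, CONT cows 0015 and 1024 and REST cows 0078, 1018 and 1015, had processed intensities of 17.3 to 91.6. On this probe, ACKR3 in these cows was not told apart from background.

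For the other ACKR3 probe (A_73_P287371), all 6 CONT arrays and 3 REST arrays were well above background. Its log2 signal was -4.67 at the lowest, -3.75 at the median and -3.47 at the highest in CONT, and -5.39, -4.92 and -4.64 in REST. Here 5 CONT cows were above every REST cow, 5 REST cows were below every CONT cow, and REST cow 0049 alone, at -4.64, reached into the CONT range. The CONT mean was -3.97 ± 0.54 and the REST mean -4.97 ± 0.28 (SD, n = 6 cows per diet), and with normexp the difference was -0.35. The log2 differences of both probes thus rest in part on signals that were not above background. Both ACKR3 probes followed the same cows after subtraction of the diet means (r = 0.85, permutation p = 0.00189, adjusted p = 0.00756; rho = 0.90, adjusted p = 0.00112). The r was 0.79 with slide means removed and 0.82 without CONT cow 0015 and REST cow 1018, the cows farthest from the median. It also rests in part on signals not above background or close to it, such as intensities of 17.3 and 17.5 in REST cow 1018. How much of this r reflects background was not tested.

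No probe of the 3 genes had diets that did not overlap, compared with 0.127% of 43448 probes without missing values. None of the 6 probes of CXCL12 and CXCR4 was called by limma with Westfall-Young or Benjamini-Hochberg adjustment, and none had an unadjusted p under 0.05. Among all 43653 probes, 0% were called under either adjustment, and 2.62% had an unadjusted p under 0.05. In bulk tissue, fewer cells of a type and less RNA per cell cannot be told apart, which holds for each difference given here.

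The slide with the brightest background carried more CONT than REST arrays. Within slides 1, 2 and 3, the log2 difference of the brightest ACKR3 probe was -0.89, -0.40 and -0.83, and that of the other probe was -1.13, -0.16 and -1.14. The differences were smallest on slide 2, where CONT is 1 cow, while on slide 1 REST is 1 cow. These are the values that chose ACKR3, split by slide, and they support nothing further. With slide as a block the differences were -0.72 and -0.84, and without the arrays of slide 1 they were -0.55 and -0.70.

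For CXCR4 the slides did not point one way, since the differences within slides 1, 2 and 3 were 1.22, -1.86 and 0.92. Those of CXCL12 were 0.56, -0.19 and -0.011. With slide as a block the log2 differences were 0.18 (standard error 0.69) for CXCR4 and 0.11 (standard error 0.20) for CXCL12, both within their error. Each slide held only 4 cows, and the differences within slides were not tested.

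**Figure D2:**
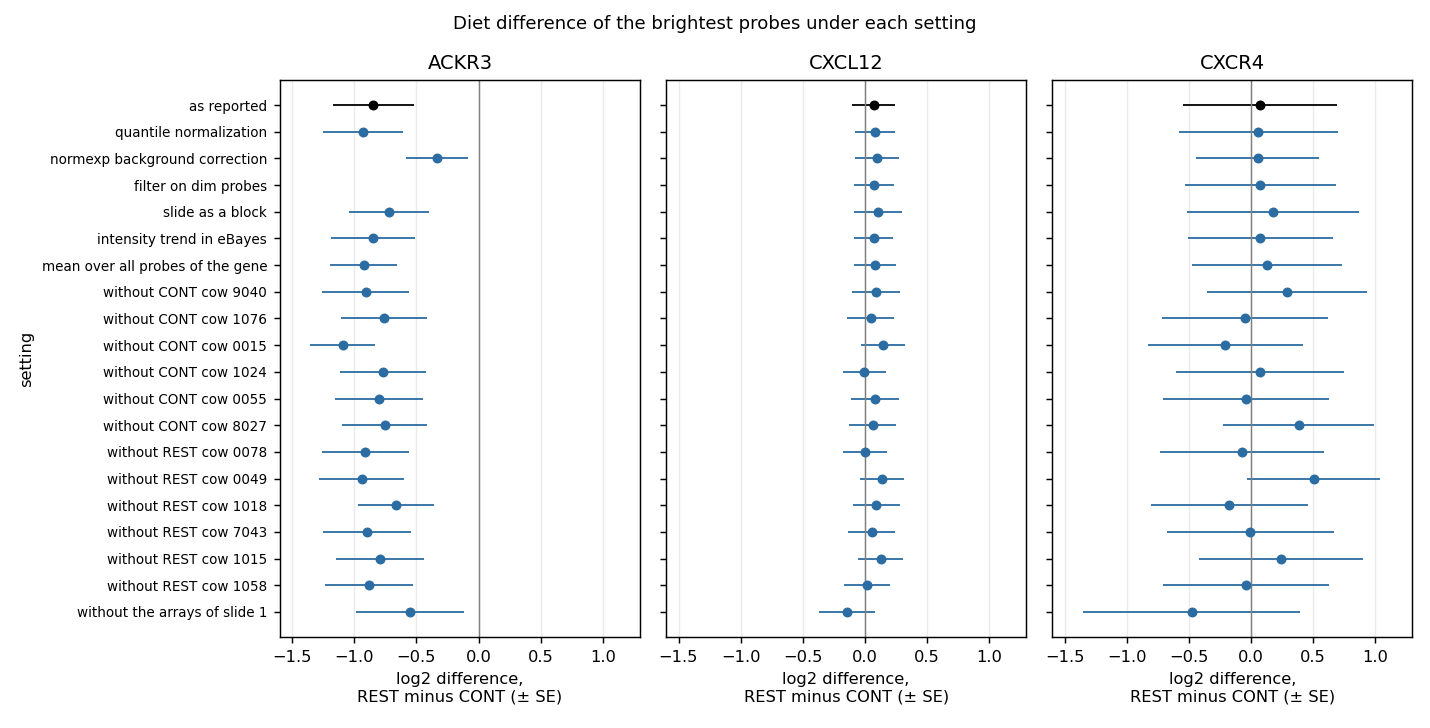
Log2 difference, REST minus CONT, of the brightest probe of ACKR3, CXCL12 and CXCR4 (points; in 1 row the mean over probes) with its standard error (bars) under each setting (rows), the reported one in black. The ACKR3 values, which chose the gene, run from -1.09 without CONT cow 0015 to -0.33 with normexp, while CXCL12 and CXCR4 lie on both sides of 0.

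No pair of the 3 genes had a correlation across cows that passed the test. After subtraction of the diet means, Pearson r over the 12 cows was -0.32 between ACKR3 and CXCL12 (permutation p = 0.316, adjusted p = 0.775; rho = -0.50, adjusted p = 0.424). It was 0.028 between ACKR3 and CXCR4 (permutation p = 0.930, adjusted p = 0.947; rho = -0.084, adjusted p = 0.910). Between CXCL12 and CXCR4 it was 0.25 (permutation p = 0.460, adjusted p = 0.940; rho = 0.26, adjusted p = 0.809). P-values were adjusted over the 27 relations computed, which comprise these 3 pairs and the 24 relations with marker lists below. With the slide means removed as well, r was -0.23, 0.20 and 0.13.

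Between ACKR3 and CXCL12, r was -0.84 in CONT (exact permutation p = 0.0208, not adjusted) and 0.27 in REST (exact permutation p = 0.650), and -0.12 without CONT cow 0015 and REST cow 1018. Between ACKR3 and CXCR4 it was 0.46 in CONT and -0.47 in REST, and -0.15 without the same cows. Between CXCL12 and CXCR4 it was -0.33 in CONT and 0.70 in REST, and 0.59 without CONT cows 0015 and 1024. The sign of r thus differed between the diets for each pair, and the difference between diets was not tested.

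CXCR4 followed the pan-leukocyte and myeloid markers of the biopsies. The mean log2 signal of 8 pan-leukocyte markers was 2.12 to 3.21 in CONT and 1.29 to 3.36 in REST, and that of 8 myeloid markers was 0.78 to 2.68 in CONT and -0.35 to 2.89 in REST. The cow with the least CXCR4, REST cow 0049, was also the lowest for both lists. The cow with the least CXCR4 of each diet also had its lowest 75th percentile intensity (577.1 in CONT cow 0015, 386.9 in REST cow 0049). The highest CXCR4 came with the highest 75th percentile in CONT (cow 8027, 1184) but not in REST. The relation of CXCR4 to the 75th percentile was not tested. Pearson r of CXCR4 with the pan-leukocyte mean was 0.90 (permutation p = 0.00058, adjusted p = 0.0157), and rho was 0.85 (adjusted p = 0.0564). It was 0.89 in CONT (exact permutation p = 0.025) and 0.94 in REST (exact permutation p = 0.0181), and 0.89 with slide means removed (adjusted permutation p = 0.00675). Without CONT cow 0015 and REST cow 0049, the cows farthest from the median of CXCR4, r was 0.81. The adjusted permutation p was 0.103 without REST cow 0049 (r = 0.82) and 0.159 without the arrays of slide 1 (r = 0.89).

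With the myeloid mean, r was 0.84 (permutation p = 0.00253, adjusted p = 0.0228; rho = 0.76, adjusted p = 0.101). It was 0.82 with slide means removed, 0.71 in CONT, 0.93 in REST and 0.70 without CONT cow 0015 and REST cow 0049. The adjusted permutation p rose to 0.0626 without CONT cow 0015, to 0.198 without REST cow 0049, to 0.141 without REST cow 1015 and to 0.159 without the arrays of slide 1. With 7 markers of T and B cells, r was -0.11 (permutation p = 0.731, adjusted p = 0.940). Between the diets, 4 of 8 pan-leukocyte and 4 of 9 myeloid markers had a higher mean in REST, with median log2 differences of -0.024 and -0.056, and none had an unadjusted p under 0.05. These counts moved with single arrays, to 7 of 8 and 7 of 9 (medians 0.28 and 0.25) without REST cow 0049, to 6 of 8 and 7 of 9 with slide as a block, and to 0 of 8 and 2 of 9 (medians -0.20 and -0.46) without the arrays of slide 1. Of 9 T and B cell markers 4 had a higher mean in REST (median -0.036), and 2 of these had an unadjusted p under 0.05, compared with 2.64% of all named genes. Those 2 became 1 with normexp or with slide as a block, and 0 without CONT cow 9040, without REST cow 0049 or without the arrays of slide 1, and the median lay between -0.049 and 0.13 with single cows left out.

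**Figure D3:**
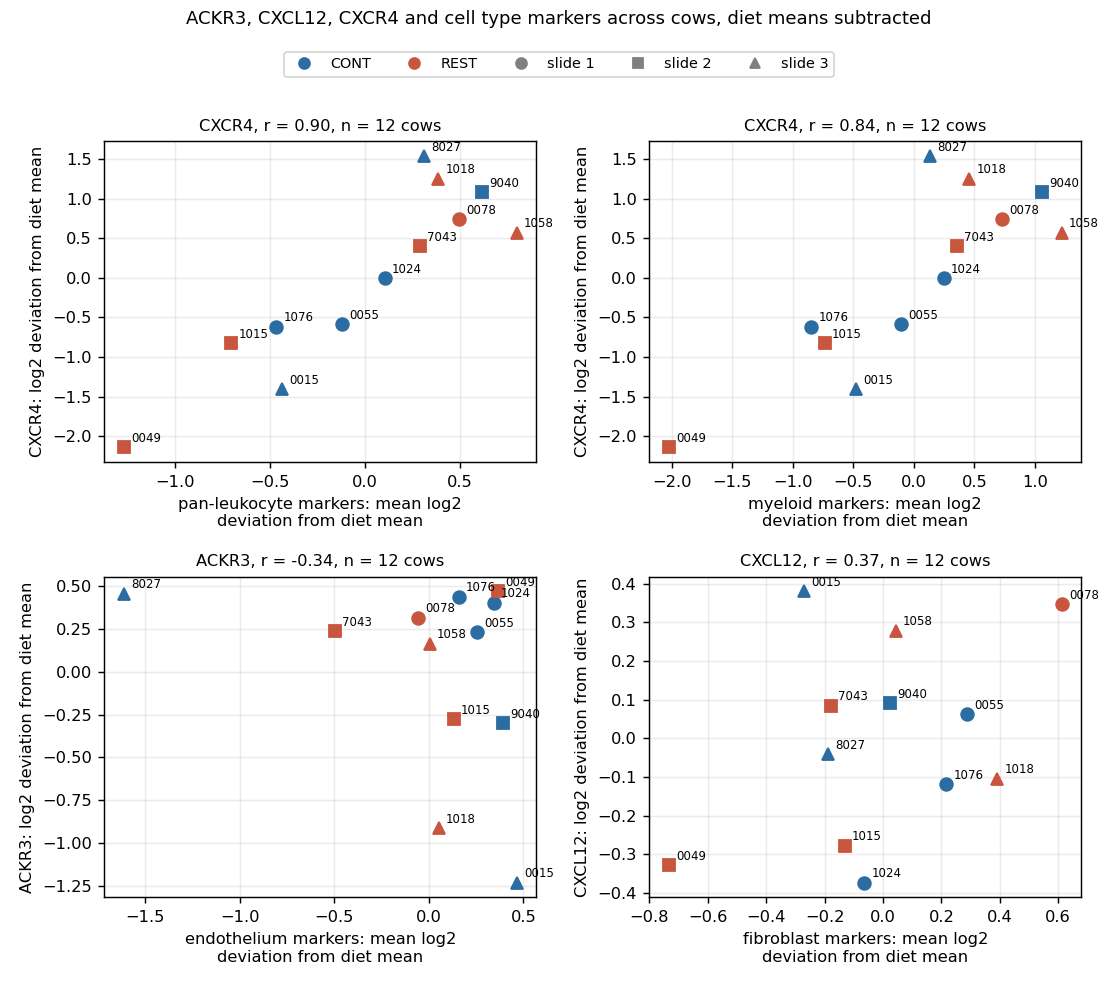
Deviation of CXCR4, ACKR3 and CXCL12 from the diet mean (y axis, log2) against the mean deviation of a cell type marker list (x axis, log2), with 1 labelled point per cow (color: diet; shape: slide). CXCR4 lies along a line with the pan-leukocyte (r = 0.90) and myeloid (r = 0.84) markers, whereas ACKR3 against endothelium (r = -0.34) and CXCL12 against fibroblast markers (r = 0.37) are scattered.

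Single markers were also compared with CXCR4. Of the 8 pan-leukocyte genes, 7 had an r over 0.7 with CXCR4 (median 0.85), compared with 11.7% of 9000 genes. PTPRC, which encodes the leukocyte antigen CD45, was the exception with r = 0.43. Of the 8 myeloid genes, 6 were over 0.7 (median 0.82). The 7 T and B cell genes were split, with 2 over 0.7 (28.6%), a median of -0.47 and a range of -0.77 to 0.77. The 9 luminal genes ran mostly opposite, with a median of -0.75 and a range of -0.87 to 0.76, although 2 were over 0.7 (22.2%). Of genes chosen after their values were seen, the actin regulator CORO1A had an r of 0.93, and RAC2 and PIK3CD, which act downstream of chemokine receptors in leukocytes, had 0.90 and 0.88, while RGS1, a regulator of G protein signaling, had 0.61. These correlations share the 12 arrays and describe them only.

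Of the matched adipocyte markers, PLIN1, LEP, LIPE and CIDEC did not exceed the background on each array. CXCR4 ran opposite to the mean of the other 3, FABP4, PNPLA2 and PPARG (r = -0.77, permutation p = 0.00211, adjusted p = 0.0228, and rho = -0.73, adjusted p = 0.123). The value was -0.75 (adjusted permutation p = 0.0986) with slide means removed and -0.63 without CONT cow 0015 and REST cow 0049. Leaving out CONT cow 0015, CONT cow 8027, REST cow 0049 or REST cow 1018 took the adjusted permutation p to 0.0733, 0.139, 0.184 and 0.0521, and leaving out the arrays of slide 1 took it to 0.336. With endothelial markers r was -0.57 (permutation p = 0.0293, adjusted p = 0.198), with luminal markers -0.53 (permutation p = 0.0891, adjusted p = 0.391) and with fibroblast markers 0.55 (permutation p = 0.0935, adjusted p = 0.391). The last was 0.70 with slide means removed (adjusted permutation p = 0.128) but 0.040 without CONT cow 0015 and REST cow 0049, so that it rests on those cows.

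ACKR3 was not tied to a cell type list by these tests. Its relation with endothelial markers, the cells in which the receptor is best known, had an r of -0.34 (permutation p = 0.257, adjusted p = 0.772; rho = -0.28, adjusted p = 0.784), and -0.68 (adjusted permutation p = 0.201) with slide means removed. The other 7 lists had an r of -0.23 to -0.025 with ACKR3. CXCL12 had an r of 0.53 with myeloid (adjusted permutation p = 0.391), 0.51 with pan-leukocyte (adjusted permutation p = 0.418) and 0.37 with fibroblast markers (adjusted permutation p = 0.775). Within REST, CXCL12 had an r of 0.86 with the myeloid and 0.87 with the pan-leukocyte mean, compared with -0.11 and -0.21 in CONT, and the difference between diets was not tested.

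**Figure D4:**
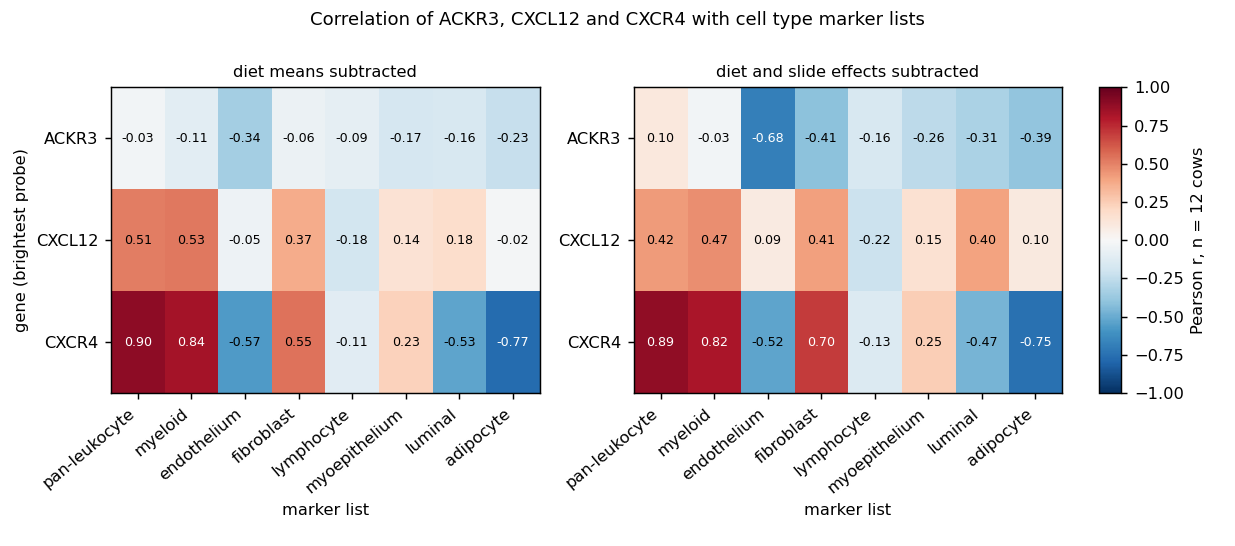
Pearson r over 12 cows between ACKR3, CXCL12 and CXCR4 (rows, brightest probe) and the mean of each of 8 cell type marker lists (columns), with diet means subtracted (left) and with slide effects subtracted as well (right). The CXCR4 row holds the strongest values, 0.90 with pan-leukocyte, 0.84 with myeloid and -0.77 with the 3 bright adipocyte markers. The ACKR3 row stays between -0.34 and -0.03 at the left.

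Some lists of markers of other cells lay to one side between the diets, as ACKR3 did, although none of their genes was called by limma over all probes. All 10 endothelial markers had a higher mean in REST, compared with 43.5% of all named genes (median log2 difference 0.43), with the mean of the list at -1.35 to 0.73 in CONT and 0.23 to 1.09 in REST. This mean holds 9 genes, without CLDN5, whose spot was an outlier on 1 REST array. Without CONT cow 8027, the lowest, 9 of 10 were higher and the median was 0.10. VWF, an endothelial clotting factor, had a log2 difference of 0.79 (standard error 0.30), PECAM1 0.37 (standard error 0.36) and CDH5 0.55 (standard error 0.43). Of the 10 endothelial markers, 1 had an unadjusted p under 0.05, compared with 2.64% of all named genes. ACKR3 thus had a lower mean in REST while the endothelial markers had a higher one. Of the 10 fibroblast markers, 7 had a lower mean in REST, compared with 7139 of 12639 named genes. The median log2 difference of these markers was -0.44, or -0.27 with slide as a block. The list was at 1.496 to 2.06 in CONT and 0.64 to 1.98 in REST. COL1A1, a fibrillar collagen chain, differed by -0.72 (standard error 0.31) and DCN, a matrix proteoglycan, by -0.38 (standard error 0.21) on their brightest probes, although another DCN probe differed by 0.95 (standard error 0.38). Of the 10 fibroblast markers, 3 had an unadjusted p under 0.05, against the same share of 2.64%, and 1 with slide as a block. With single cows left out, this count was 1 to 6, the highest without REST cow 0078, and the lowest without CONT cow 1076 or REST cow 0049, 7043 or 1015. All 10 were lower without CONT cow 8027, REST cow 0078 or REST cow 1018. Of 7 adipocyte markers 6 had a higher mean in REST (median 0.37). This count was 4 of 7 with normexp (median 0.091) and 5 of 7 without the arrays of slide 1 (median 0.68). The mean of the 3 bright adipocyte markers was 0.90 to 3.47 in CONT and 2.77 to 4.10 in REST. Of 8 myoepithelial markers 7 had a lower mean (median -0.14), with the list at 2.79 to 4.18 in CONT and 2.79 to 3.68 in REST. Only 2 of 8 were lower without CONT cow 0055 (median 0.10), and 3 of 8 without the arrays of slide 1 (median 0.039). The luminal list had 7 of 9 markers with a higher mean in REST (median 0.0975), but 4 of 9 with quantile normalization (median -0.013). The part of these cell types in the ACKR3 difference was not tested.

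The genes whose brightest probe was most like each of the 3 genes across cows were taken from the genes well above background on all arrays, by Pearson r over 12 cows with diet means subtracted. For CXCR4 they were EVI2B, ARHGAP45, MS4A8, SERPINA3-3 and HADHB, with r from 0.95 to 0.96. For ACKR3 they were CENPL (0.86), C16H1orf174 (0.83), ATP23 (0.82), TCEANC (0.79) and RAD52 (0.79). For CXCL12 they were CTPS1 (0.78), TNPO3 (0.77), BOLA-DQB (0.77), CAPZA2 (0.77) and GOSR1 (0.76). An r over 0.7 was found for 1053 genes with CXCR4, for 41 with ACKR3 and for 19 with CXCL12. CXCR4 therefore had many more genes of like pattern than ACKR3 or CXCL12. Its r was broad in both directions, with 5th and 95th percentiles over these genes of -0.78 and 0.81. For ACKR3 they were -0.47 and 0.46, and for CXCL12 -0.46 and 0.48.

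Further genes of the axis were taken from 6 lists, of which 51 of 60 genes were matched to probes. Of these, 33 had a higher and 18 a lower mean in REST, with a median log2 difference of 0.073, while 43.5% of all 12639 named genes had a higher mean and their median was -0.034. No axis gene was called by limma with Westfall-Young or Benjamini-Hochberg adjustment, and 3 had an unadjusted p under 0.05, compared with 2.64% of the named genes. These 3 were ACKR1, ACKR2 and CXCL16. With slide as a block, with normexp or with the mean over probes, the number was 1 in each case, and no axis gene had diets that did not overlap.

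Among the ligands, 5 of 8 had a higher mean in REST. CXCL11, the other chemokine ligand of ACKR3, had a log2 signal of -3.36 to -0.14 in CONT and -2.84 to 0.32 in REST, a log2 difference of 0.37 (standard error 0.57). ADM, a vasodilator peptide that ACKR3 also scavenges, differed by 0.17 (standard error 0.40), and MIF, a cytokine that binds CXCR4, by -0.000885 (standard error 0.27). None of these exceeded its error. CXCL16, the ligand of CXCR6, had a log2 signal of 2.68 at the lowest, 3.26 at the median and 4.21 at the highest in CONT, and 1.23, 2.84 and 2.99 in REST. Each of the 6 REST cows had less CXCL16 than the CONT mean, with a log2 difference of -0.75 (standard error 0.34, unadjusted p = 0.0448 and adjusted p = 1, limma, Westfall-Young). On the other CXCL16 probe it was -0.71 (standard error 0.38, unadjusted p = 0.0887, limma).

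Among the receptors, 5 of 9 had a higher mean in REST, and none was called. ACKR1, which binds chemokines on red cells and venules without signaling, had all arrays but 1 of CONT well above background. Its log2 signal was -4.33 to -3.36 in CONT and -3.94 to -2.44 in REST, a log2 difference of 0.59 (standard error 0.26, unadjusted p = 0.0423 and adjusted p = 1, limma, Westfall-Young). The dimmer ACKR1 probe, well above background on 1 array, had a difference of 0.35 (standard error 0.43). ACKR2, a scavenger of CC chemokines, was well above background on 3 arrays of each diet. Its log2 signal was -4.74 to -3.51 in CONT and -6.23 to -4.04 in REST, a log2 difference of -0.87 (standard error 0.36, unadjusted p = 0.0301 and adjusted p = 1, limma, Westfall-Young). On the other ACKR2 probe, well above background on 1 array of each diet, the difference was only -0.071 (standard error 0.58). ACKR4, an atypical receptor of CC chemokines that was chosen after its values were seen, had a log2 difference of -0.74 (standard error 0.40, unadjusted p = 0.0877, limma) and was well above background on 1 array of each diet. Since ACKR2 and ACKR4 were mostly not above background, their signs carry little weight, and none of these receptors passed the threshold over all probes. CXCR3, the signaling receptor of CXCL11, had a log2 difference of 0.25 (standard error 0.26), with 3 arrays of each diet well above background. That of CD74, which binds MIF, was -0.28 (standard error 0.42).

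None of the genes that act on the receptors or on CXCL12 had an unadjusted p under 0.05 on its brightest probe. ARRB1 and ARRB2, the arrestins that ACKR3 recruits, had log2 differences of -0.21 (standard error 0.27) and 0.12 (standard error 0.30). GRK2, a kinase that phosphorylates active receptors, differed by 0.087 (standard error 0.22) on its brightest probe and by 0.65 (standard error 0.27, unadjusted p = 0.0303 and adjusted p = 1, limma, Westfall-Young) on the other, for which 3 CONT and 6 REST arrays were well above background. Of 7 arrestin and kinase genes 5 had a higher mean in REST, as had 10 of 13 G protein and signaling genes, and the median differences were 0.087 and 0.082. GNAI1, an inhibitory G protein subunit chosen after its values were seen, was the farthest below 0 of these signaling genes, at -0.44 (standard error 0.22, unadjusted p = 0.0655, limma). STAT3, a transcription factor of cytokine signaling, differed by 0.15 (standard error 0.30). For DPP4, a protease that inactivates CXCL12, the log2 difference was 0.19 (standard error 0.27), with 4 CONT and 3 REST arrays well above background. The 2 dimmer DPP4 probes differed by more, 0.82 (standard error 0.39, unadjusted p = 0.0553, limma) and 0.84 (standard error 0.43, unadjusted p = 0.0709, limma), with 3 REST arrays and at most 1 CONT array well above background. In the lists of proteases and proteoglycans and of regulators, 5 of 8 and 3 of 6 genes had a higher mean in REST.

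**Figure D5:**
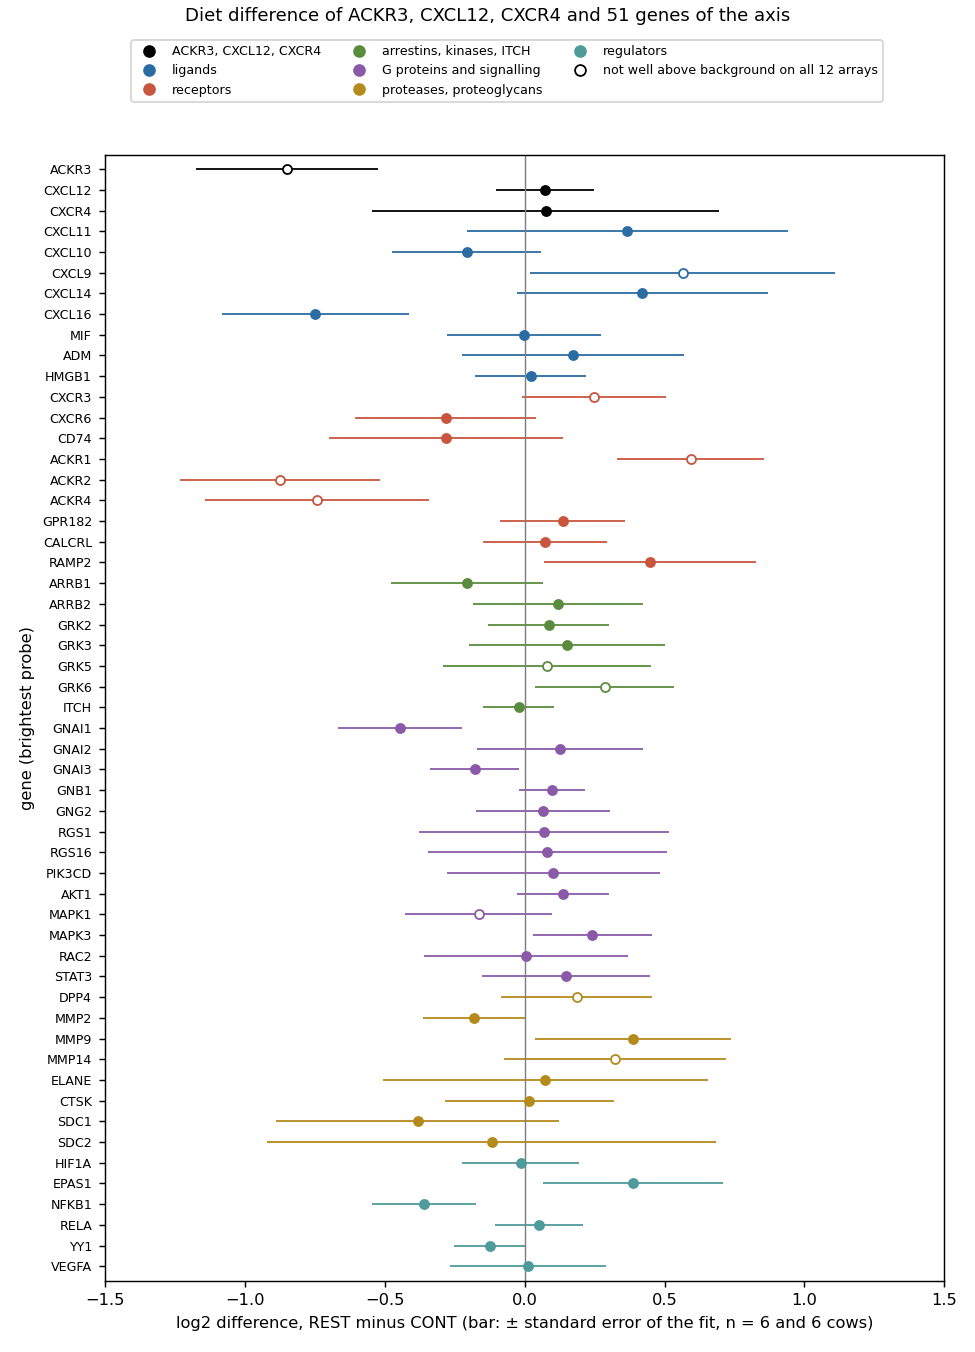
Log2 difference, REST minus CONT, of the brightest probe (points) with its standard error (bars) for ACKR3, CXCL12, CXCR4 and 51 further genes of the axis, colored by role, with open points for probes not well above background on all 12 arrays. CXCL16 (-0.75) lies farthest to the left of the filled points, ACKR3 (-0.85) and ACKR2 (-0.87) are open, and CXCL12 (0.071) and CXCR4 (0.075) lie near 0.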

How the data were processed

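Total RNA from 12 mammary biopsies was measured by the authors on bovine Agilent arrays with the single dye Cy3. The deposited values are spot intensity values from Feature Extraction (version 11.0.1.1, per the file headers) after its background correction, not normalized between arrays. The deposited calls of spots well above background and of outlier spots were used as flags. The shift, test and adjustment are those the study's methods name, and the Westfall-Young adjusted p also depends on which splits are drawn. Control spots were left out, outlier spots were set to missing (205 probes had a missing value), and log2 intensities were shifted by each array's 75th percentile. Probes were named through RefSeq accessions without version, which matched 26832 probes. Positions are not given, because the probe annotation is for another assembly than the RefSeq table, and no sequences were used here.

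REST was compared with CONT over all 43653 probes with limma 3.58.1 (R 4.3.3), with Westfall-Young step-down adjustment over 100 of 462 distinct splits of the cows, and a threshold of 0.05. Exact permutation tests enumerated 924 splits, with a smallest p of 0.00216. Correlations used deviations from the diet means, with 100000 permutations within diets (numpy 2.4.6, scipy 1.17.1). A gene is represented by its brightest probe, and a marker list by the mean of its genes well above background on all arrays with no missing value. On simulated data with noise independent between probes, Westfall-Young found 4% of 2-fold and 38% of 4-fold changes. Benjamini-Hochberg found 22% and 72% with 5 unchanged probes called (50 probes per fold among 43653). Probes of the real arrays are correlated across cows, so these shares may not hold for them.

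The members and lists were chosen with earlier results of these data known. Named were all probes of the 3 genes and the 5 genes most alike to each. Also named were the axis genes with an unadjusted p under 0.05 or diets that did not overlap, and 10 others of known role. Of 13 defining markers, PTPRC, PECAM1, CDH5, VWF, COL1A1 and DCN are named singly. CD3E, CD79A, CD14 and KRT18 enter only through their lists, and CSF3R, CSN2 and ADIPOQ were not matched. EGFR, RGS2, PIK3CG, JAK2, CTSG, SDC4, HSPG2, FOXC1 and CA9 of the axis lists and CD79B of the marker lists were not matched either. Alternatives were Benjamini-Hochberg adjustment, quantile normalization, normexp (offset 50, on the median spot signal), the deposited matrix, outlier spots kept, a filter on dim probes, eBayes with an intensity trend, a block for slide, averaging the probes of a gene, and each cow left out. Figures were drawn with matplotlib 3.10.9.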

Additional observations from a re-analysis of the deposited data

Results flagged for a closer look

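Dixon's ratio exceeded its critical value of 0.625 in 4 of the 58 sets of 6 cows examined, where chance gives 2.9, and in each of these 1 cow stood apart. On the CXCL12 probe A_73_P447986, CONT cow 0015 had a log2 signal of -2.68, and the other CONT cows had -3.55 to -3.28. The mean log2 signal of the endothelial markers was -1.35 in CONT cow 8027 and 0.42 to 0.73 in the other CONT cows. The mean of the T and B cell markers was 0.42 in CONT cow 9040 and 0.64 to 0.73 in the others. The mean of the adipocyte markers FABP4, PNPLA2 and PPARG was 0.90 in CONT cow 8027 and 2.55 to 3.47 in the others.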

How the results depend on the processing

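No paired analysis was possible because the CONT and REST cows are different animals, and the sample labels do not tie them in pairs. The ACKR3 difference chose the gene, so that its values here are a description. With single cows left out it lay between -1.09 and -0.67 on the brightest probe and between -1.14 and -0.90 on the other, and with normexp it was -0.33 and -0.35. The filter on dim probes removed only the brightest probe. CXCL12 and CXCR4 had an adjusted p of 1 (limma, Westfall-Young) in each setting, in which their sign varied. With single cows left out, the log2 difference ranged from -0.0032 to 0.15 for CXCL12, from -0.035 to 0.25 for its probe A_73_P447986, from -0.21 to 0.50 for CXCR4 and from -0.15 to 0.50 for its probe A_73_P049211. Without the arrays of slide 1, a setting chosen after the data were seen, they were -0.14, -0.13, -0.48 and -0.31. A_73_P447986 was at -0.051 with normexp. No axis gene was called under any setting, and the axis genes with an unadjusted p under 0.05 numbered 0 to 4 when single cows were left out, 0 without the arrays of slide 1, and 1 each with slide as a block, with normexp and with the mean over probes. Over all probes, 0 were called except with the filter on dim probes, where 1 of 26678, of the gene OOEP, was called (Westfall-Young adjusted p = 0.04). That filter kept a probe if all CONT arrays, or all REST arrays, passed the background call. It thus used the real diets and favors probes bright in only 1 of them, which the Westfall-Young splits do not account for. The adjusted p of OOEP is therefore not valid, and no conclusion is drawn from this call. With an unadjusted p under 0.05 there were 377 probes with normexp, 301 genes with the mean over probes, and 825 to 1739 probes without single cows.

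With single cows left out, r ranged from -0.47 to 0.055 between ACKR3 and CXCL12, from -0.42 to 0.28 between ACKR3 and CXCR4, and from -0.023 to 0.57 between CXCL12 and CXCR4. With the mean over probes, the last 2 were -0.0059 and -0.33. With normexp, ACKR3 had an r of -0.44 with CXCR4 and 0.043 with the endothelial markers. The causes were not tested. ACKR3 is limited by its signal, which was not above background on 5 arrays for the brightest probe.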
